A study of Mus musculus with 2 samples.

Results

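Respiratory complex I, the NADH:ubiquinone oxidoreductase of the inner mitochondrial membrane, was followed through the transcripts of its nuclear-encoded subunits and assembly factors. The members were all gene symbols that start with Nduf, 45 of the 24346 symbols with a value. Of these, 38 carry a subunit symbol (Ndufa, Ndufb, Ndufc, Ndufs or Ndufv) and 7 an assembly factor symbol (Ndufaf). RNA had been sequenced in Gr-1+ CD11b+ myeloid cells sorted from BALB/c mice. Both groups came from mice given 3% dextran sulfate sodium, a polymer that induces colitis, for 6 days. The ATPgS group (n = 1 library) was kept for 2.5 hours with ATPgS (ATPγS), a slowly hydrolysed ATP analogue that activates nucleotide receptors, and the control group (n = 1 library) without it. The ATPgS concentration appears in the label as 100, without a readable molar prefix, and the number of animals pooled is not given. The title of the series names the ATP receptor P2X4 and myeloid cell metabolism. The comparison asks how complex I transcripts differed between these libraries.

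Complex I takes electrons from NADH and passes them through a flavin and a chain of iron-sulfur clusters to ubiquinone, and it couples this to the pumping of protons. Its matrix arm holds the N module, which oxidises NADH, and the Q module, which reduces ubiquinone, and its membrane arm holds the proton pumps, which mitochondrial DNA encodes. Core subunits do the catalysis and are shared with bacteria, accessory subunits surround and stabilise them, and assembly factors help to build the enzyme and then leave it. Neutrophils, the main cell with both surface markers, are known to rely mostly on glycolysis and to hold few mitochondria.

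The values are FPKM, read counts scaled to transcript length and to the library's mapped reads, 1 value per gene and library. With 1 library per group there was no replicate error, no test was made, and each difference is one between these libraries. The steps of the lowest values gave a depth of about 3620000 reads in the ATPgS library and 2710000 in the control library. The estimated reads of a gene then gave the exact binomial (Clopper-Pearson) 95% interval of its ratio, which covers counting error only. Of the sorted cells' markers, S100a8 and S100a9, of the neutrophil protein calprotectin, and Itgam, of CD11b, were high in both libraries (143.9 FPKM in the ATPgS library and 112 FPKM in the control library for Itgam), and Ly6g was not analysed here. T and NK cell markers were also present, with 9 of 9 listed above 0 in both libraries and a summed level of 131 FPKM in the ATPgS library and 341 FPKM in the control library. The 6 B cell markers summed to 258 FPKM in the ATPgS library and 333 FPKM in the control library. In such bulk samples, fewer cells of a type and less RNA per cell cannot be told apart.

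Most subunit transcripts were lower in the ATPgS library. Of 37 subunit genes whose mean FPKM was 1 or more, 28 had a log2 ratio below 0, which is 75.7%, where 60.0% of all 6125 genes with a mean FPKM of 10 or more did (all 37 are above that level) and 49.6% of all 18311 genes with a mean of 1 or more. The log2 ratio here is that of ATPgS FPKM + 1 over control FPKM + 1. The subunits' median log2 ratio was -0.32, against -0.13 over the same 6125 genes. Rescaling the libraries so that those genes had a median of 0 left 25 of the 37 below 0. Summed over the 38 subunit rows, the level was 1858 FPKM in the ATPgS library and 2372 FPKM in the control library, a ratio of 0.783, where the sum over all genes had a ratio of 0.963. Of the T and NK cell markers above, 8 of 9 were also below 0 (Klrb1c was above), as were 3 of 4 epithelial markers, which summed to 101 FPKM in the ATPgS library and 139 FPKM in the control library. Monocyte and macrophage markers were above 0 in 6 of 8, with sums of 972 FPKM in the ATPgS library and 812 FPKM in the control library. Neutrophil markers were above 0 in 4 of 5 (Cxcr2 was below), and dendritic cell markers in 3 of 4 (Clec9a was below). The part of these cells in the difference was not tested.

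Few subunits differed by a large factor. At least 2-fold lower in the ATPgS library were 3 of 37, or 8.11%, where 7.38% of all genes with a mean FPKM of 10 or more (9.91% at a mean of 1 or more) were. At least 2-fold higher were 0 of 37, where 4.29% of genes with a mean FPKM of 10 or more (13.8% at a mean of 1 or more) were. The share of 2-fold lower subunits was thus near that of all genes. At 1.5-fold, 8 of 37 were lower and 1 higher, where 19.8% and 11.0% of genes with a mean FPKM of 10 or more were. The counting interval lay wholly below 1 for 16 of 37 subunits, or 43.2%, and for 36.5% of all genes with a mean FPKM of 10 or more. It lay wholly above 1 for 0 of 37, and for 20.8% of those genes. With the shortest coding transcript of each gene as its length, the interval lay below 1 for only 10 of the 37 subunits. The share of all genes was not computed with that length, so 43.2% against 36.5% holds for the main length only. Reads can be shared with other genes: 8 subunits (Ndufa12, Ndufab1, Ndufb3, Ndufb4, Ndufb11, Ndufs3, Ndufs5 and Ndufs6) have a near-identical processed pseudogene, and 15 Nduf rows, among them Ndufs1 (489 bases), share at least 50 exonic bases with another gene. Without all of these genes, 14 of 18 subunits were below 0, with a median of -0.39.

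**Figure D1:**
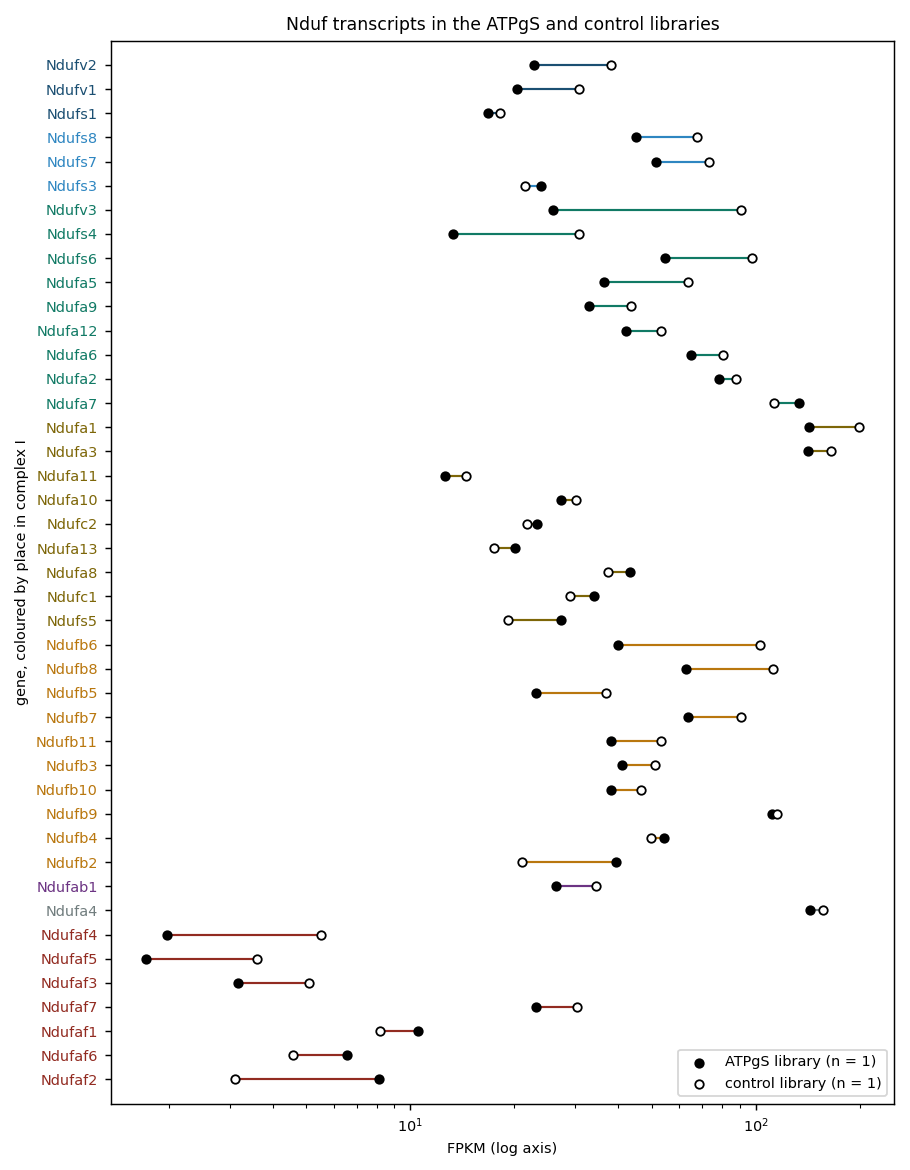
FPKM (log axis) of Nduf genes listed above 0 in both libraries, with filled points for the ATPgS library and open points for the control library (n = 1 each), grouped and coloured by place in complex I. The open point lies to the right for 27 of the 36 subunit genes drawn, and the assembly factors other than Ndufaf7 sit at lower levels than the subunits.

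The 3 subunit genes past 2-fold were Ndufv3, Ndufb6 and Ndufs4, all accessory subunits. Their promoter windows, 250 bases before to 50 bases after the RefSeq transcript start (GRCm38.p6, gene strand), are shown because these genes differ most, with capitals for letters of the motifs searched.
Ndufv3 (chr17:31519865-31520164, plus strand): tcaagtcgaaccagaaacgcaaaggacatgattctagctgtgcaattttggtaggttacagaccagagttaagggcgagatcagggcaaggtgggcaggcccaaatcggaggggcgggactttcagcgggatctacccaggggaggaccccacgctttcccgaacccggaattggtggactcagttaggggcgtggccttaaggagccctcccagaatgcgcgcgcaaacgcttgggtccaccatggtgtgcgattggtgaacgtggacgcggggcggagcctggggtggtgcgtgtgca
Ndufb6 (chr4:40279372-40279671, minus strand): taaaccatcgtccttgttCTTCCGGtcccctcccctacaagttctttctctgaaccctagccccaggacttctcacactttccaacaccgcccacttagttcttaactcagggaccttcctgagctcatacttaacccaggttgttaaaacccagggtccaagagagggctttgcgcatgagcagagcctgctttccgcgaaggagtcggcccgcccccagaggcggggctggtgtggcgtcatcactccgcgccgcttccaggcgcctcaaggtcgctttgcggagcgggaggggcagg
Ndufs4 (chr13:114388045-114388344, minus strand): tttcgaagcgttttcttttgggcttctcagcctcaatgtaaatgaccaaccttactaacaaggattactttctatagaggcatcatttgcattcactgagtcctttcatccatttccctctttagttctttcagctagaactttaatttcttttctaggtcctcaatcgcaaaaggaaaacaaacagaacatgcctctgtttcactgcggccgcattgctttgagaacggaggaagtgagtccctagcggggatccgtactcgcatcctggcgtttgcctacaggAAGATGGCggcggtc
The Ndufv3 window held none of the motifs, the Ndufb6 window held an ETS motif and the Ndufs4 window a YY1 motif.

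Across the family, 33 of 38 subunits had such a window. The motifs searched on both strands were GCGC and TGCGC set apart by any 1 base for NRF1, CCGGAAG for ETS factors such as GABP, AAGATGGC for YY1 and TCAAGGTCA for the estrogen-related receptors, factors known from nuclear genes of mitochondrial proteins. The YY1 letters were in 7 of 33 subunit windows, or 21.2%, against 2.88% of 27025 windows of all genes. The NRF1 letters were likewise in 7 of 33, or 21.2%, against 4.78% of all windows. The ETS letters were in 4 (12.1%, against 9.12% of all windows), and the estrogen-related receptor letters in 0 (0.407% of all windows). Among the 6 assembly factors with a window, 2 held the NRF1 letters, 1 the ETS letters and 0 the YY1 letters.

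The 7 YY1 matches all read on the gene's strand, 23 to 39 bases into the transcript, and in all 7 the ATG within the motif was an annotated start codon. Windows were not chosen for holding a start codon. The part of this placement in the YY1 shares (21.2% of subunit windows, 2.88% of all windows) was not tested. They are shown with up to 10 bases on either side, the motif in capitals.
Ndufs4 (chr13:114388045-114388069, minus strand): tgcctacaggAAGATGGCggcggtc
Ndufs6 (chr13:73328433-73328459, minus strand): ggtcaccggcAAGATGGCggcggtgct
Ndufa9 (chr6:126849098-126849125, minus strand): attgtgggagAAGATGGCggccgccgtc
Ndufs7 (chr10:80249463-80249490, plus strand): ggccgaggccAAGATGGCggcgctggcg
Ndufb8 (chr19:44555393-44555414, minus strand): ggagaaggtgAAGATGGCtgcc
Ndufa3 (chr7:3617385-3617412, plus strand): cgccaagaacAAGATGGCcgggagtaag
Ndufc1 (chr3:51408916-51408943, minus strand): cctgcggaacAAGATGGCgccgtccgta
Of these 7 genes, 6 had a log2 ratio below 0 and Ndufc1 lay above it (0.22), where 75.7% of the 37 subunits were below 0. A match is a run of letters and says nothing of whether the factor binds.

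The core subunits of the N module, where NADH is oxidised, were all below 0, as were 60.0% of all genes with a mean FPKM of 10 or more. Ndufv1, which binds the flavin and NADH, stood at 20.4 FPKM in the ATPgS library and 30.9 FPKM in the control library, with an interval of its ratio of 0.507 to 0.866. Ndufv2, an iron-sulfur subunit beside it, stood at 22.9 FPKM in the ATPgS library and 38.2 FPKM in the control library, 1.67-fold lower (interval 0.419 to 0.852). Ndufs1, the largest subunit, which carries the chain of clusters onward, differed little, at 16.8 FPKM in the ATPgS library and 18.2 FPKM in the control library, and lay above 0 after rescaling to a median of 0. The median log2 ratio of these 3 genes was -0.58.

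The core subunits of the Q module hand the electrons to ubiquinone. Ndufs7, which carries the last iron-sulfur cluster, stood at 51.3 FPKM in the ATPgS library and 73.2 FPKM in the control library. Ndufs8, another iron-sulfur subunit, stood at 45.04 FPKM in the ATPgS library and 67.4 FPKM in the control library. Both had nearly the same ratio (0.701 and 0.668), and each counting interval lay below 1 (0.532 to 0.925 for Ndufs7 and 0.503 to 0.894 for Ndufs8). Ndufs3, a core subunit without a cluster, was above 0 at 23.9 FPKM in the ATPgS library and 21.4 FPKM in the control library (interval 0.766 to 1.64). Ndufs3 has a processed pseudogene, Gm12251, that is 98.6% identical over 792 bases, so its value is less certain.

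Of the accessory subunits of the matrix arm, 8 of 9 were below 0 and 2 of 9 at least 2-fold lower, and the median was -0.39. Of all genes with a mean FPKM of 10 or more, 60.0% were below 0 and 7.38% at least 2-fold lower. Ndufv3, a small subunit bound to the N module, stood at 25.9 FPKM in the ATPgS library and 90.6 FPKM in the control library. It was 3.50-fold lower, with an interval of 0.173 to 0.442 from about 27 and 72 reads (chromosome 17, 31520115 to 31531331, GRCm38). Its log2 ratio of -1.77 lay outside the central 95% of all 1113 genes at a mean FPKM of 30 to 60, which ran from -1.31 to 0.94. Ndufs4, which clamps the N and Q modules together and whose loss causes a Leigh-like disease in mice, stood at 13.3 FPKM in the ATPgS library and 30.7 FPKM in the control library. It was 2.30-fold lower (interval 0.318 to 0.581, chromosome 13, 114287795 to 114388258). Its log2 ratio of -1.14 lay inside the central 95% of the 3683 genes at a mean FPKM of 10 to 30 (-1.52 to 1.47). No exon of Ndufv3 or Ndufs4 overlapped another gene in GENCODE M21.

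Ndufs6, a zinc-binding subunit needed late in assembly, stood at 54.8 FPKM in the ATPgS library and 97.4 FPKM in the control library, 1.78-fold lower (interval 0.410 to 0.771). Ndufa5, of the Q module, stood at 36.4 FPKM in the ATPgS library and 63.8 FPKM in the control library, but about 15 and 20 reads left an interval of 0.268 to 1.15. Ndufa9, which sits near the ubiquinone site, stood at 33.0 FPKM in the ATPgS library and 43.4 FPKM in the control library. Smaller differences were found in the rest of the arm. Ndufa12, which takes the place of the assembly factor Ndufaf2 in the finished enzyme, stood at 42.2 FPKM in the ATPgS library and 53.2 FPKM in the control library. Ndufa6, of the LYR family of proteins that bind the acyl carrier protein, stood at 65.04 FPKM in the ATPgS library and 80.6 FPKM in the control library. Ndufa2, with a thioredoxin-like fold, stood at 78.2 FPKM in the ATPgS library and 87.7 FPKM in the control library. Ndufa7 alone among these 9 was above 0, at 133 FPKM in the ATPgS library and 113 FPKM in the control library (interval 0.907 to 1.52).

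Of the accessory subunits of the proximal membrane arm, 4 of 9 were below 0 and 5 above, with a median log2 ratio of 0.09. Of all genes with a mean FPKM of 10 or more, 60.0% were below 0. The arm's summed level was nonetheless lower, at 473 FPKM in the ATPgS library and 534 FPKM in the control library, a ratio of 0.886. By the mean of both libraries, the 2 most abundant subunits are here. Ndufa1, a small membrane subunit encoded on the X chromosome, stood at 142.9 FPKM in the ATPgS library and 199 FPKM in the control library (interval 0.549 to 0.936). Ndufa3, another single-span membrane subunit, stood at 142.0 FPKM in the ATPgS library and 166 FPKM in the control library (interval 0.682 to 1.09). Ndufa1 was the only one of the 9 whose interval lay wholly below 1. Ndufa10, with the fold of a nucleoside kinase, stood at 27.2 FPKM in the ATPgS library and 30.2 FPKM in the control library. Ndufa11, related to the Tim17 and Tim23 import channel proteins, was the lowest of the subunits that passed the minimum, at 12.6 FPKM in the ATPgS library and 14.5 FPKM in the control library. The 5 members above 0 were modest differences at modest levels. Ndufs5, a subunit of the intermembrane space, stood at 27.3 FPKM in the ATPgS library and 19.2 FPKM in the control library (interval 0.760 to 2.71). Ndufa8, of the same disulfide-bonded fold, stood at 43.4 FPKM in the ATPgS library and 37.2 FPKM in the control library. Ndufa13, also known as GRIM-19, stood at 20.2 FPKM in the ATPgS library and 17.5 FPKM in the control library, and shares 375 exonic bases with Tssk6 on the opposite strand. Ndufc1 stood at 33.9 FPKM in the ATPgS library and 29.0 FPKM in the control library, and Ndufc2 at 23.2 FPKM and 21.7 FPKM in ATPgS and control. All 5 counting intervals include 1.

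In the distal membrane arm, whose accessory subunits carry the Ndufb symbols, 8 of 10 were below 0 and the median was -0.39. Of all genes with a mean FPKM of 10 or more, 60.0% were below 0. Ndufb6 stood at 39.8 FPKM in the ATPgS library and 103 FPKM in the control library, 2.59-fold lower (interval 0.282 to 0.524, from about 66 and 128 reads; chromosome 4, 40270591 to 40279421). Its log2 ratio of -1.35 lay outside the central 95% of the 901 genes at a mean FPKM of 60 to 200, which ran from -0.95 to 0.78. It shares 257 exonic bases with Smim27 on the opposite strand, and since the library preparation does not mark strand, reads of the 2 genes cannot be told apart there. Ndufb8 stood at 62.8 FPKM in the ATPgS library and 112 FPKM in the control library, 1.78-fold lower (interval 0.432 to 0.721). Ndufb5 stood at 23.1 FPKM in the ATPgS library and 36.9 FPKM in the control library, 1.60-fold lower (interval 0.456 to 0.867), and shares 616 exonic bases with Mrpl47, a mitochondrial ribosomal protein gene. These 3 were the members of the arm at least 1.5-fold lower, where 19.8% of all genes with a mean FPKM of 10 or more were.

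Ndufb7, on the intermembrane face, stood at 63.8 FPKM in the ATPgS library and 90.8 FPKM in the control library. Ndufb11, encoded on the X chromosome, stood at 38.2 FPKM in the ATPgS library and 53.2 FPKM in the control library. The intervals of both lay below 1. Ndufb3 stood at 40.9 FPKM in the ATPgS library and 51.3 FPKM in the control library, and Ndufb10 at 38.0 FPKM and 46.4 FPKM in ATPgS and control. Ndufb9, a LYR protein, was nearly equal at 112 FPKM in the ATPgS library and 115 FPKM in the control library, and its sign turned on either rescaling. Ndufb4 stood slightly higher at 54.3 FPKM in the ATPgS library and 49.8 FPKM in the control library, and its pseudogene Ndufb4c matches it without a mismatch over 390 bases.

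Ndufb2 was the 1 subunit gene at least 1.5-fold higher in the ATPgS library. It stood at 39.4 FPKM in the ATPgS library and 21.1 FPKM in the control library, 1.87-fold higher (chromosome 6, 39592574 to 39603382). Its estimated reads were only about 36 and 15, and its interval of 0.959 to 3.53 includes 1. It also shares 146 exonic bases with Braf and 156 with the antisense gene Gm16272, both on the opposite strand, and 145 with Gm42420 on its own strand.

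Ndufab1, the mitochondrial acyl carrier protein that sits in both arms and also serves fatty acid and iron-sulfur cluster synthesis, stood at 26.4 FPKM in the ATPgS library and 34.6 FPKM in the control library (interval 0.650 to 0.896). It has 2 processed pseudogenes over 99% identical to it along part of its length (99.8% and 99.4%). The other 2 rows with a subunit symbol are set apart here, since current structures place Ndufa4 in complex IV. Ndufa4 stood at 143.4 FPKM in the ATPgS library and 156 FPKM in the control library (interval 0.747 to 1.13), and its log2 ratio turned from -0.12 to just above 0 on rescaling to a median of 0. It is counted among the 37. Ndufa4l2, its hypoxia-inducible paralogue, was at 0.361 FPKM in the ATPgS library and listed at 0 in the control library, so it did not pass the minimum and no fold is given.

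**Figure D2:**
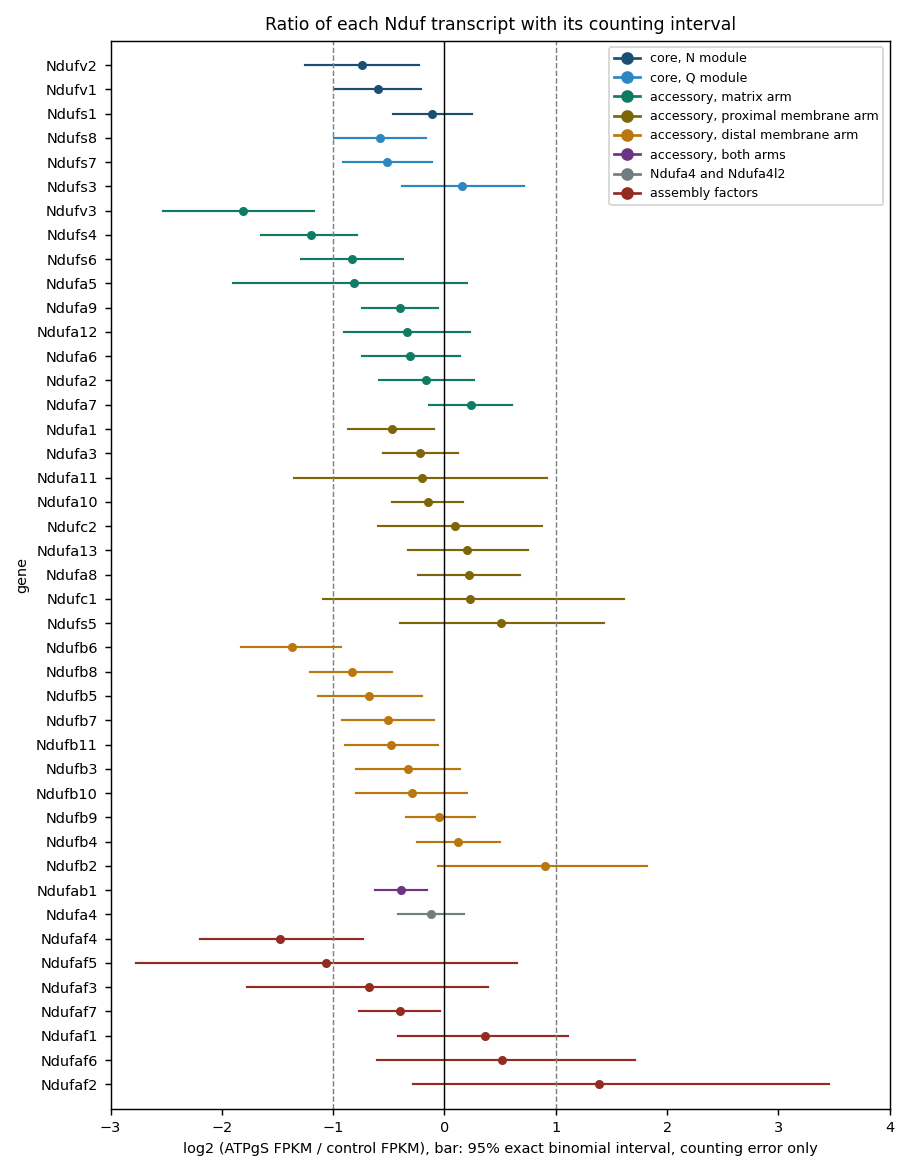
Log2 of the ratio of ATPgS FPKM to control FPKM for Nduf genes listed above 0 in both libraries, without a pseudocount, with its 95% exact binomial interval (bars, counting error only) and dashed lines at 2-fold. Of the subunits, Ndufv3, Ndufb6 and Ndufs4 lie left of the dashed line, the proximal membrane arm lies around 0, and Ndufb2 and the low assembly factors have wide bars.

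Assembly factor transcripts were far less abundant than those of the subunits, with a median of 6.55 FPKM in the ATPgS library and 5.09 FPKM in the control library, against 38.8 FPKM and 50.6 FPKM over the 38 subunit rows in ATPgS and control. Their signs were mixed. The median log2 ratio of the 7 factors was -0.39, where that of the subunits was -0.32. That of all genes with a mean FPKM of 1 or more was 0.01. Of 7 genes, 4 were below 0 and 3 above, 1 was past 2-fold on the lower side and 1 on the higher side, where 9.91% and 13.8% of all genes with a mean FPKM of 1 or more were, and 49.6% of those genes were below 0. With a pseudocount of 5 neither passed 2-fold.

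Ndufaf7, a protein arginine methyltransferase, was the most abundant, at 23.1 FPKM in the ATPgS library and 30.5 FPKM in the control library (interval 0.586 to 0.971). Ndufaf4, which acts with Ndufaf3 on the Q module, stood at 1.98 FPKM in the ATPgS library and 5.503 FPKM in the control library, 2.78-fold lower (interval 0.218 to 0.603, chromosome 4, 24898083 to 24905001). Its partner Ndufaf3 stood at 3.18 FPKM in the ATPgS library and 5.09 FPKM in the control library (interval 0.293 to 1.31). Ndufaf5, which hydroxylates an arginine of Ndufs7, stood at 1.72 FPKM in the ATPgS library and 3.59 FPKM in the control library, from about 6 and 9 reads, past 2-fold as a plain ratio (0.479) but not with the pseudocount of 1. The other 3 factors stood higher, on few reads. Ndufaf2, a late-stage chaperone and paralogue of Ndufa12, stood at 8.14 FPKM in the ATPgS library and 3.11 FPKM in the control library, 2.62-fold higher. About 14 and 4 reads gave Ndufaf2 an interval of 0.823 to 10.9, and it shares 1955 exonic bases with the lincRNA gene B230220B15Rik on the opposite strand. Ndufaf6 stood at 6.55 FPKM in the ATPgS library and 4.59 FPKM in the control library (interval 0.659 to 3.28). Ndufaf1, of the assembly complex that builds the membrane arm, stood at 10.5 FPKM in the ATPgS library and 8.19 FPKM in the control library (interval 0.749 to 2.15).

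The other assembly genes, without an Nduf symbol, had no common direction. Of 13, 0 differed by 2-fold or more on the log2 scale with a pseudocount of 1, 5 were below 0 and 8 above, where 49.6% of all genes with a mean FPKM of 1 or more were below 0. The median was 0.17, and -0.19 over the 7 with a mean FPKM of 10 or more. The median of all genes was 0.13 at a mean FPKM of 1 to 10. The partners of Ndufaf1 were above 0, with Acad9 at 14.6 FPKM in the ATPgS library and 9.97 FPKM in the control library. Ecsit stood at 11.3 FPKM in the ATPgS library and 9.94 FPKM in the control library, and Tmem126b at 3.76 FPKM and 2.23 FPKM in ATPgS and control. Nubpl, which delivers iron-sulfur clusters to the enzyme, stood at 3.32 FPKM in the ATPgS library and 1.48 FPKM in the control library. The intervals of Acad9 (1.15 to 1.88) and Nubpl (1.11 to 4.93) lay above 1, and those of Ecsit and Tmem126b include 1. Tmem261, an older symbol of Dmac1, was the lowest by ratio, at 8.002 FPKM in the ATPgS library and 15.7 FPKM in the control library. The most abundant, 1810043H04Rik, an older symbol of Ndufaf8, stood at 31.0 FPKM in the ATPgS library and 24.6 FPKM in the control library. These genes were named from this list after their values were seen, except 1810043H04Rik.

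**Figure D3:**
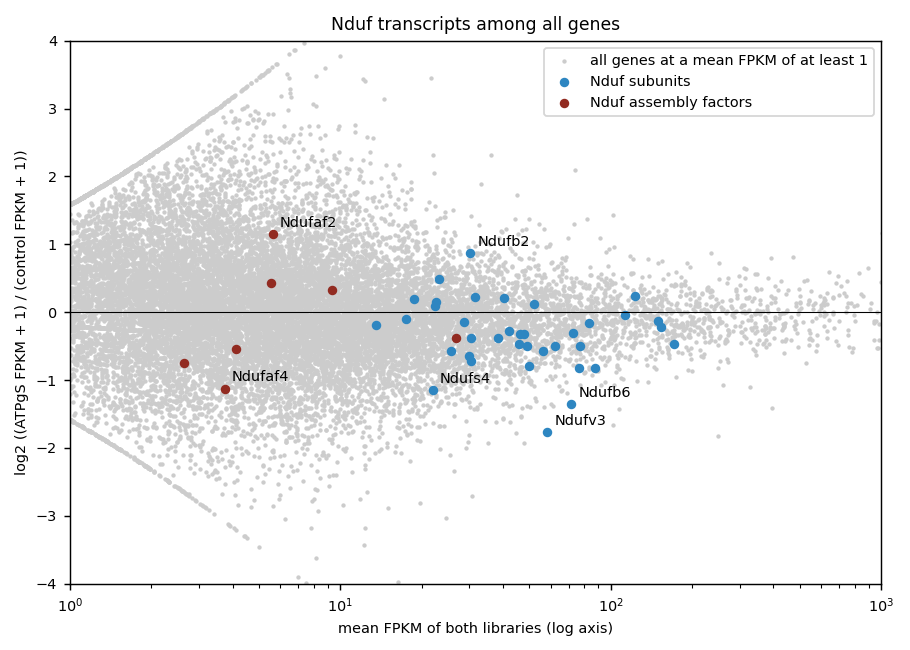
Log2 ratio (ATPgS FPKM + 1 over control FPKM + 1) against the mean FPKM of both libraries (log axis) for all genes with a mean FPKM of 1 or more (grey), the Nduf subunits (blue) and the Nduf assembly factors (red); grey points beyond the axes are not drawn. Ndufv3 and Ndufb6 lie at the lower edge of genes of their level, and the other Nduf points lie within the grey cloud.

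Levels of the subunits spread over a range of 11.4-fold in the ATPgS library and 13.7-fold in the control library. The range ran from Ndufa11 to Ndufa4 in the ATPgS library and to Ndufa1 in the control library. Ndufa4, placed in complex IV by current structures, is counted here, and Ndufa1 stood nearly as high in the ATPgS library (142.9 FPKM). The finished enzyme holds nearly all of the other subunits in equal number. Over the 37 genes, the level was higher for short transcripts (Spearman's rho of mean FPKM against transcript length -0.48, Pearson's r on log2 FPKM -0.44). FPKM is already per length, and the length that Cufflinks uses is shortened by the fragment length, which weighs most on short transcripts. The part of this shortening in the relation was not tested. The log2 ratio was not tied to length (rho -0.11, r -0.04) and only weakly to level (rho -0.22, r -0.20). These are descriptions across genes of the same 2 libraries, and genes are not independent replicates. Of all 44 Nduf rows with a mean FPKM of 1 or more, 2 (Ndufv3 and Ndufb6) lay outside the central 95% of genes of their level.

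Of all genes with a mean FPKM of 10 or more, 60.0% were below 0 and 7.38% at least 2-fold lower. At a mean of 1 or more, these shares were 49.6% and 9.91%. Among the other respiratory complexes, complex II had 4 of 4 subunit genes below 0 and a median of -0.40. Its most abundant member, Sdhb, stood at 76.3 FPKM in the ATPgS library and 110 FPKM in the control library. In complex III 4 of 9 were below 0 with a median of 0.06, and Uqcrc2, of the core that faces the matrix, was the 1 member at least 2-fold lower. Its most abundant member, Uqcrb, stood at 122.9 FPKM in the ATPgS library and 179 FPKM in the control library. In complex IV 9 of 13 genes with a mean FPKM of 1 or more were below 0. At least 2-fold lower were 2 and higher 1, where 9.91% and 13.8% of all genes at that level were. The 10 genes with a mean FPKM of 10 or more had a median of -0.19. Cox8a was the most abundant at 316 FPKM in the ATPgS library and 344 FPKM in the control library. The 1 higher gene, Cox8b, was at 10.9 FPKM in the ATPgS library and listed at 0 in the control library. About 6 and 0 reads gave Cox8b an interval that starts at 0.881 and includes 1. The 2 lower genes, Cox6b2 and Cox7a1 (named after their values were seen), were listed at 0 in the ATPgS library. They had about 4 and 1 reads in the control library, and both intervals include 1. In complex V 12 of 16 were below 0 with a median of -0.22, and Atp5b stood at 304 FPKM in the ATPgS library and 364 FPKM in the control library. Complexes II to V together summed to 4406 FPKM in the ATPgS library and 4967 FPKM in the control library, a ratio of 0.887. The 36 complex I subunit rows without Ndufa4 and Ndufa4l2 summed to 1714 FPKM in the ATPgS library and 2216 FPKM in the control library, a ratio of 0.774. The difference between these ratios has no replicate behind it and was not tested.

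Of the 77 mitochondrial ribosomal protein genes, 9 were lower and 7 higher by 2-fold or more, where 9.91% and 13.8% of all genes with a mean FPKM of 1 or more were. Below 0 were 43, or 55.8%, against 49.6% of those genes, and the median was -0.13. These shares are near those of all genes. Mrpl9 stood at 7.62 FPKM in the ATPgS library and 30.8 FPKM in the control library, and Mrpl46 at 14.0 FPKM and 44.4 FPKM in ATPgS and control. Mrps5 stood at 10.9 FPKM in the ATPgS library and 2.67 FPKM in the control library, and Mrps26 at 22.8 FPKM and 7.74 FPKM in ATPgS and control. Mrpl33, the most abundant, stood at 195 FPKM in the ATPgS library and 236 FPKM in the control library. Differences as large as those of Ndufs4 and Ndufb6 thus occurred in both directions among genes whose products form 1 complex.

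**Figure D4:**
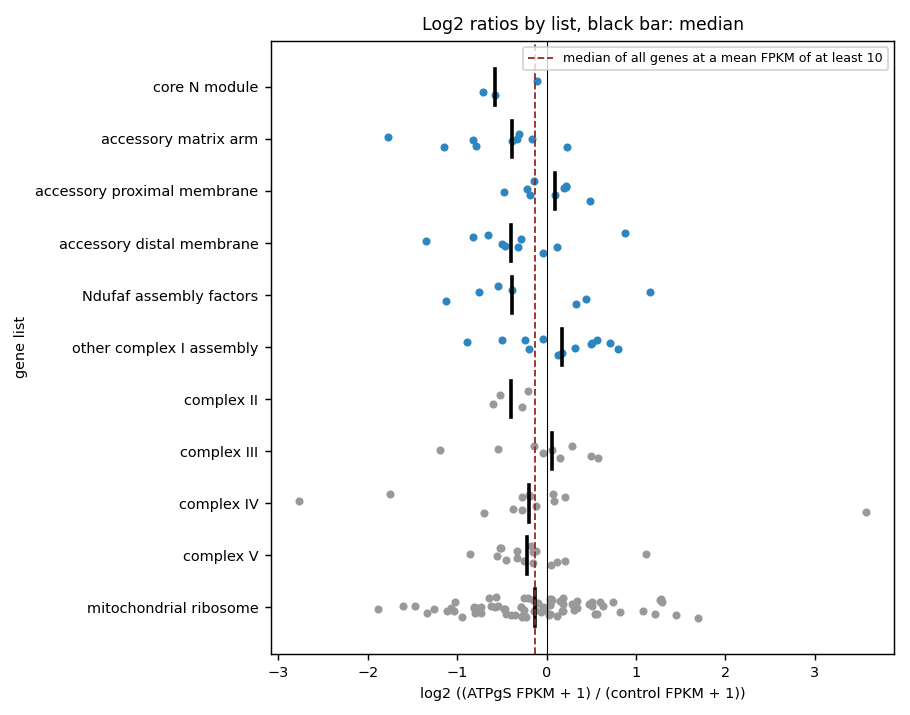
Log2 ratio (ATPgS FPKM + 1 over control FPKM + 1) of every gene with a mean FPKM of 1 or more, by list, with points spread vertically for sight only, a black bar at each list's median and a dashed line at the median of all genes with a mean FPKM of 10 or more (-0.13). The core N module, matrix arm and distal membrane arm lists of complex I, the Ndufaf assembly factors and complex II have medians from -0.58 to -0.39. The proximal membrane arm, complex III and the other assembly genes have medians above 0.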

How the data were processed

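RNA of Gr-1+ CD11b+ cells was sequenced in 1 library per condition after SMART-Seq HT and Nextera preparation, per the labels' protocols. The deposited values are FPKM, 1 per gene symbol, made by the authors with Cufflinks 2.2.1 from TopHat2 2.0.13 alignments to mm10 (with Bowtie2 2.2.3 and SAMtools 0.1.19), per the submitters' processing notes. Their gene annotation: not given in the sources used here.

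The log2 ratio used a pseudocount of 1, which makes differences of low genes look smaller. A mean FPKM of 1 or more was required for the counts. Folds printed with a gene have no pseudocount. Depth came from the steps of FPKM times coding length over 1329 olfactory, vomeronasal and taste receptor genes. The length was reduced by 0 to 400 bases in steps of 50, and 200 gave the most nearly whole values. With it, 77.8% (ATPgS) and 78.7% (control) of values under 10 reads lay within 0.05 of a whole read. Without a fit, 10% would by chance. Depth and reduction were both fitted to these values, so the shares are no independent check. A reduction of 250 came close (77.7% and 78.0%), with depths of about 3880000 (ATPgS) and 2900000 (control) reads. Reads per gene then used the shortest RefSeq-matched transcript of at least 300 bases in GENCODE M21 (GRCm38, the same assembly as mm10), which held 23310 (95.7%) of the symbols. They are approximate, since the authors' gene models may differ. Intervals cover counting error only, as PCR copies cannot be told from molecules. No p-value was computed, since 1 library per group gives no replicate error.

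Near-identical copies were transcripts of another gene with at least 95% identity over at least 150 bases (blastn). Promoter windows are from RefSeq (GRCm38.p6) and were matched by symbol. Python 3.11.15, pandas 2.3.3 and scipy 1.17.1 were used, and the steps were tested on simulated data. Every Nduf row was named, except 1 subunit that is not reported here and enters only the counts, medians and sums. Of the other lists, genes with a mean FPKM of 5 or more that differed by 2-fold or more (at most 4) and the most abundant gene were named. Exceptions, picked with their values in view, are marked. The members, lists and rules were chosen with earlier results of these data known. The alternatives were other pseudocounts, minimums, thresholds and scalings, and, added after seeing the data, other transcript lengths and genes without copies or shared exons.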

Additional observations from a re-analysis of the deposited data

How the results depend on the processing

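The count of subunits at least 2-fold lower stayed between 2 and 3 (of 37, or of 38 with no minimum) under pseudocounts of 0.1 and 5, no minimum, a minimum of 10 and both rescalings. A threshold of 1.5-fold gave 8 lower and 1 higher, where 19.8% and 11.0% of all genes at a mean FPKM of at least 10 passed it, and with rescaling to a median of 0 it gave 7 lower and 2 higher. That rescaling moved the subunits' median from -0.32 to -0.195. Without genes that have a processed pseudogene or share at least 50 exonic bases with another gene, 14 of 18 subunits were below 0. For the assembly factors, counts rest on few reads: at least 2-fold lower were 2 with a pseudocount of 0.1, 0 with a pseudocount of 5 and 0 at a minimum of 10, and 2 at 1.5-fold, also after rescaling to a median of 0. At least 2-fold higher were 0 with a pseudocount of 5, at a minimum of 10 and without genes with shared exons. At that minimum 1 factor was left, which was below 0. Their median moved from -0.39 to -0.27 after rescaling to a median of 0, and their mean was -0.13. Of 180 values of single genes under other pseudocounts and scalings, 179 lay inside the counting interval of the main ratio, and the exception was Ndufaf4 with a pseudocount of 5 (-0.59). This count says little of stability. The rescalings shift log2 ratios by only about 0.05 (same sum) and 0.13 (median of 0), and the interval of Ndufa4l2 runs from 0.019 without an upper end. The sign turned for Ndufa4, Ndufb9 and Ndufs1 under a rescaling. No paired analysis was possible because each condition had 1 library, and for the same reason no library could be left out.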

Other observations

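Of genes for other routes by which electrons reach ubiquinone, 6 of 7 were below 0 in the ATPgS library, where 49.6% of all genes with a mean FPKM of 1 or more were. At least 2-fold lower were 2, where 9.91% of those genes were. The median log2 ratio was -0.71, also over the 5 with a mean FPKM of 10 or more, where the median of all genes at that level was -0.13. Etfdh, which passes electrons of fatty acid oxidation to ubiquinone, stood at 7.60 FPKM in the ATPgS library and 21.5 FPKM in the control library (interval 0.256 to 0.484). Etfb, a subunit of the flavoprotein that feeds it, stood at 18.1 FPKM in the ATPgS library and 47.7 FPKM in the control library (interval 0.256 to 0.541). Sqrdl, of sulfide oxidation and the most abundant of the list, was nearly equal at 51.2 FPKM in the ATPgS library and 54.1 FPKM in the control library. T and NK cell markers had a lower sum as well (131 FPKM in the ATPgS library and 341 FPKM in the control library), and their part was not tested.

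Of 11 genes of ubiquinone synthesis, 2 were at least 2-fold higher and 1 lower. Of all genes with a mean FPKM of 1 or more, 13.8% and 9.91% were. Below 0 were 7 of the 11, where 49.6% of all those genes were, and the median was -0.34. Coq5, a methyltransferase of the pathway, stood at 23.0 FPKM in the ATPgS library and 1.22 FPKM in the control library, from about 153 and 6 reads. Adck4 stood at 23.8 FPKM in the ATPgS library and 6.59 FPKM in the control library. Coq9 stood at 4.76 FPKM in the ATPgS library and 14.9 FPKM in the control library (interval 0.194 to 0.502). Coq6, the most abundant on average, was at 19.3 FPKM in the ATPgS library and 17.99 FPKM in the control library. Of 13 iron-sulfur cluster assembly genes 10 were below 0, where 49.6% of all genes with a mean FPKM of 1 or more were. The median of the 13 was -0.20, and Iscu, the scaffold protein, stood at 48.7 FPKM in the ATPgS library and 55.9 FPKM in the control library. Of 10 regulators of mitochondrial genes with a mean FPKM of 1 or more, 7 were below 0, where 49.6% of all genes at that level were. Their median was -0.37. Esrra stood at 9.88 FPKM in the ATPgS library and 4.28 FPKM in the control library (interval 1.42 to 3.78). Gabpb1, the most abundant, stood at 28.5 FPKM in the ATPgS library and 36.3 FPKM in the control library. Yy1 was at 6.03 FPKM in the ATPgS library and 11.3 FPKM in the control library (interval 0.425 to 0.674). Nrf1 was at 18.1 FPKM and 24.1 FPKM in ATPgS and control (interval 0.5695 to 0.984). Both were chosen after their values were seen.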
